A study of Oryctolagus cuniculus with 4 samples.

Results

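KIT, the receptor tyrosine kinase for stem cell factor, was examined in single-cell RNA data of the rabbit bladder mucosa. It is 1 gene (ENSOCUG00000007086) of the 18475 in each count matrix, of which 9771 carry a symbol, and exactly 1 row bears the symbol KIT. KIT was chosen by its measured UMIs and its detection in mast cells and epithelium of these same 4 matrices. Its order over cell types is therefore given as a description with no test, and the tests between injured and normal tissue rest on UMIs that were known when the gene was picked.

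Mucosa of 2 injured rabbits, taken 10 days after focal resection of the bladder mucosa, was compared with mucosa of 2 normal rabbits, each piece measuring 2.0 by 2.0 cm. The animals were adult New Zealand rabbits, no genetic change was described for any of them, and each library (Injury_1, Injury_2, Normal_1, Normal_2) stood for 1 tissue sample. Tissue was digested with collagenase and counted with 10x Genomics 3′ chemistry, which reports unique molecular identifiers (UMIs), each counting 1 captured transcript. The label of the tissue is urothelium, but fibroblast-like cells made up 8974 and epithelial-like cells 1532 of the 21945 cells kept.

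KIT is a member of the class III receptor tyrosine kinases, with PDGFRA, PDGFRB, CSF1R and FLT3. Its ligand, stem cell factor (KITLG), is made as a membrane-bound and a soluble form, and binding makes the receptor dimerise and signal through PI3 kinase, SRC family kinases, the RAS pathway and STAT proteins. Mast cells depend on KIT for survival throughout life, and the receptor is also known on haematopoietic progenitors, melanocytes, germ cells, interstitial cells of Cajal and some innate lymphoid cells. In the genome of the rabbit KIT lies between the vascular receptor gene KDR and PDGFRA, taken from the RefSeq gene order of assembly mOryCun1.1.

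The matrices held 5823 to 6884 barcodes and 28745017 to 47881609 UMIs per library, and Normal_1 was the shallowest, with a median of 4813.5 UMIs per kept cell against 6755 to 7186 in the others. Any pair of libraries shared 8 to 13 barcodes. Kept cells held 313 and 391 KIT UMIs in the injured and 144 and 279 in the normal libraries, found in 149, 182, 112 and 208 cells. Cells were clustered without KIT and classes were named from marker lists that exclude it. Of 16 listed mast cell markers 11 were measured and 8 were found in the mast cell-like cluster. These included HDC, which makes histamine, in 72.6% of its cells, FCER1A and MS4A2, chains of the IgE receptor, in 74.5% and 59.4%, and the mast cell chymase CMA1 in 11.3%. The carboxypeptidase CPA3 and RGS13 had 0 UMIs in every class, and ENPP3 had none in mast cell-like cells.

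KIT was at its highest level in mast cell-like cells in every library. There it stood at 988 CPM (KIT counts per 1000000 UMIs of the class) for Injury_1, 1240 for Injury_2, 724 for Normal_1 and 224 for Normal_2. The exact Poisson 95% intervals, which cover counting error only, were 761 to 1262, 1051 to 1454, 362 to 1296 and 90.2 to 462. Both injured libraries lay above both normal ones, but the interval of Normal_1, with 7 cells, reached over that of Injury_1. The mean was 1114 ± 178 CPM (SD, n = 2) after injury and 474 ± 354 (SD, n = 2) in normal mucosa.

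T cell-like cells followed with a 4-library mean of 39.5 ± 25.4 CPM and macrophage-like cells with 28.9 ± 8.35 (SD, n = 4), and these neighbours did not differ beyond their spread. Endothelial-like cells had 7.33 ± 3.53 CPM. Epithelial-like cells had a mean of 5.03 ± 5.65, which joins unlike libraries and overlaps the endothelial spread. Smooth muscle and pericyte-like cells, at 0.581 to 3.08 CPM, and fibroblast-like cells, at 0.604 to 2.34 CPM, were at the low end. B cell-like cells held 4 KIT UMIs in each injured library and 0 in both normal ones, which had 12 and 7 such cells. Neutrophil-like and glia-like cells had 0 KIT UMIs, which allows up to 16.9 and 6.30 CPM over all libraries (3 counts of the total). In fibroblast-like cells, the most numerous class, 0.497%, 0.550%, 1.17% and 1.42% of cells had a KIT UMI in Injury_1, Injury_2, Normal_1 and Normal_2, and this is given as a low reference for detection. Whether it is background was not tested. It was uneven, since the fibroblast-like cluster with the genes PTPRQ, HHIP and WIF1 held 48 of 101 KIT UMIs at 3.68 CPM and another held 1 at 0.104 CPM.

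**Figure D1:**
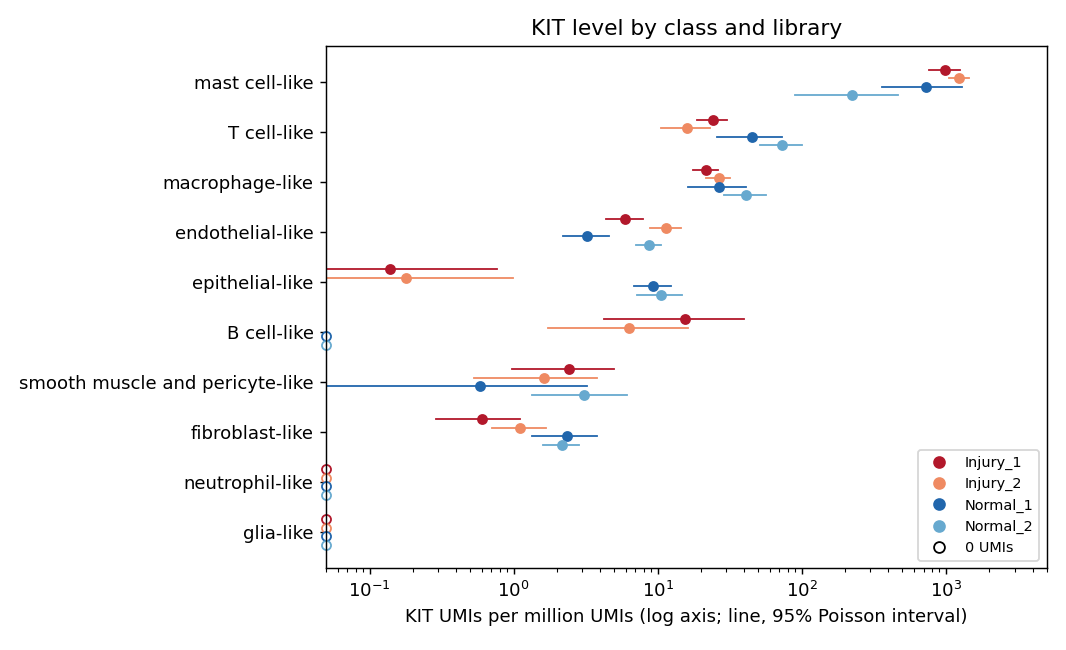
KIT level per cell class and library, in CPM on a log axis, with exact Poisson 95% intervals as lines and open points for 0 UMIs. Mast cell-like cells sit highest in all 4 libraries, and epithelial-like cells split into 0.138 and 0.178 CPM after injury against 9.29 and 10.5 CPM in normal mucosa.

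Few cells made up these high levels, so most KIT molecules lay outside mast cells. Mast cell-like cells held 20.4% of all KIT UMIs of kept cells in Injury_1 and 38.9% in Injury_2, against 7.64% in Normal_1 and 2.51% in Normal_2. In Injury_1 the largest share was that of macrophage-like cells (33.5%, nearly all of it in 1 cluster with little C1QA or CSF1R), in Normal_1 that of epithelial-like cells (34.0%) and in Normal_2 that of endothelial-like cells (37.3%). The leading source of KIT thus differed between libraries. Mast cell-like cells were 0.608%, 0.796%, 0.162% and 0.299% of kept cells in the same order. Fewer cells and less RNA per cell cannot be told apart in such shares of all UMIs.

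Within the mast cell-like cluster KIT was uneven from cell to cell. It was detected in 11 of 37 cells of Injury_1, 23 of 44 of Injury_2, 4 of 7 of Normal_1 and 5 of 18 of Normal_2. These are 29.7%, 52.3%, 57.1% and 27.8%, and the conditions overlap. In total 63 of 106 cells had no KIT UMI, 13 had 1 and 12 had at least 10, with a maximum of 17. Those 12 cells held 149 of the 234 KIT UMIs, and they came from the injured libraries (3 and 9 cells), none from the 25 normal cells. Of the 12, 9 had 5278 to 11777 UMIs, more than any normal mast cell-like cell (at most 4658). The highest count of any mast cell-like cell in Normal_1 was 5 and in Normal_2 was 3.

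Depth differed with detection, since cells with KIT had a median of 2794 UMIs and cells without it 1169. With each cell thinned to 1000 UMIs, leaving out shallower cells (8, 18, 0 and 1), the expected share with KIT was 24.2%, 52.7%, 39.0% and 17.9% in Injury_1, Injury_2, Normal_1 and Normal_2. The mean of the injured libraries was 9.99 percentage points higher, and the 2-sided exact permutation test gave p = 0.667, where 2 against 2 samples cannot go below 0.33. Without thinning the sign turned, to -1.46 points, and over libraries left out the thinned difference ranged from -4.25 to 24.2 points. These values are a description, since the test cannot pass a threshold at this size.

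**Figure D2:**
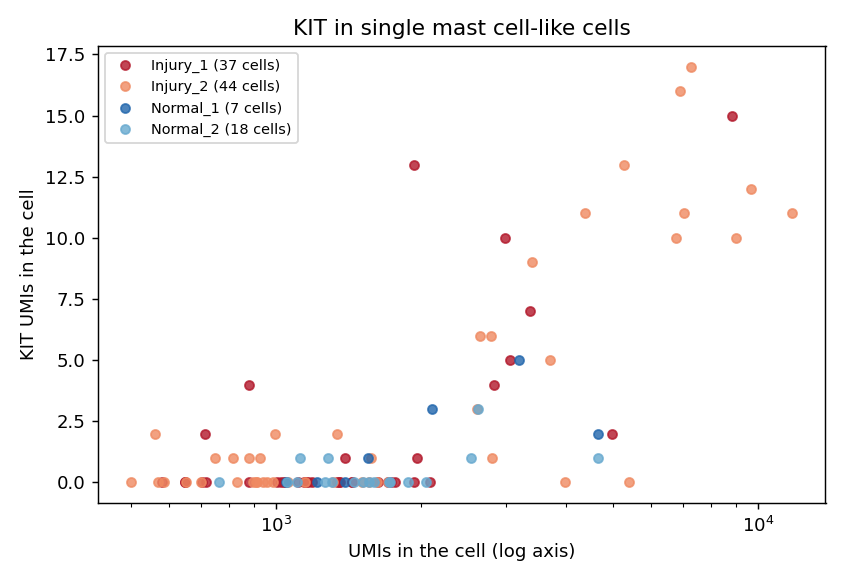
KIT UMIs in each of the 106 mast cell-like cells against the UMIs in the cell (log axis), coloured by library. The 12 cells with at least 10 KIT UMIs are all from injured mucosa, and cells without KIT lie mainly at low depth.

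Cells with and without KIT also differed in other mast cell genes, described here over pooled cells with no test because depth differed. CMA1 was detected in 12 of 43 cells with KIT and in 0 of 63 without. IL1RL1, the receptor for interleukin 33, was found in 62.8% against 7.94% of cells, at 964 and 60.0 CPM. HPGDS, which makes prostaglandin D2, was found in 39.5% against 4.76%, at 219 and 36.0 CPM. These genes were higher in the cells with KIT on the per-UMI scale too. HDC and FCER1A differed less, at 4254 against 3506 CPM and 2546 against 1825 CPM. MS4A2 and the monoamine transporter SLC18A2 had more CPM in the cells without KIT, 997 against 658 and 444 against 266.

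The genes with the level most like that of KIT were sought over 36 class and library sums. Pearson's r of log2(CPM + 10) was highest for MS4A2 (0.921), then STAP1 (0.908), FCER1A (0.894), CRYGD (0.894), STAT4 (0.884) and AFF3 (0.883), and TGM1, GPR141, GATA1 and HDC followed (0.874 to 0.880). The sums share libraries and the correlation is a description. As follows from their choice by likeness to KIT, all 10 were highest in mast cell-like cells, from 82.4 CPM for GATA1, a transcription factor of the erythroid and mast cell lineages, to 4091 CPM for HDC. STAP1, an adaptor protein that binds KIT, was at 1310 CPM there and at 200.1 CPM in T cell-like cells.

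The KIT UMIs of the macrophage-like class lay almost wholly in 1 cluster. This cluster of 410 cells was led by TNNI1, HLA-DRA, DNASE1L3 and CD74, of which HLA-DRA and CD74 belong to MHC class II presentation, and held 260 of the 269 KIT UMIs. Its KIT level was 96.9 and 73.0 CPM in Injury_1 and Injury_2 and 47.2 and 94.1 in Normal_1 and Normal_2, with a UMI in 42.1%, 34.1%, 24.6% and 41.0% of cells. The conditions overlap. The complement gene C1QA was found in 1.22% of these cells and the macrophage receptor CSF1R in 13.9%. In the other macrophage cluster of 1017 cells, where those genes reached 27.6% and 88.7%, KIT had 9 UMIs or 1.23 CPM. MS4A2 was found in 90 of the 410 cells of the KIT-bearing cluster, HDC in 0.244% and CMA1 in none.

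A further T cell-like cluster of 123 cells with IL9, RORA and, in 92.7% of cells, IL1RL1 had KIT at 80.1, 51.3, 73.9 and 51.4 CPM in Injury_1, Injury_2, Normal_1 and Normal_2. The main T cell-like cluster had 10.2, 19.4, 39.0 and 73.3 CPM in that order. Both normal libraries were above both injured ones in the main T cell-like cluster and not in the IL9 cluster. The IL9 cluster had only 52, 37, 24 and 10 cells in the same order. Its levels rest on few KIT UMIs, and the contrast between the clusters is a description.

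The cell with the most KIT UMIs of all lay outside the mast cell-like cluster. It held 36 KIT UMIs of 12817 in Injury_1 and fell in the cluster of 99 cycling T cell-like cells. Of the 11 measured mast cell markers 8 were detected in it, with 50 UMIs of FCER1A, 42 of MS4A2 and 10 of HDC, and the T cell genes ZAP70 and CD2 were at 0. Its doublet score was in the top 5% of its library. Without it the T cell-like class of Injury_1 had 35 KIT UMIs and 11.9 CPM in place of 71 and 24.0.

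Among endothelial-like cells KIT was highest in the cluster led by ESM1 and KDR, at 12.4, 21.4, 7.21 and 13.4 CPM in Injury_1, Injury_2, Normal_1 and Normal_2. The libraries of the conditions overlap. KDR itself, the neighbour of KIT in the genome, had 109 ± 30.1 CPM (SD, n = 4) in endothelial-like cells and 0 in mast cell-like cells. Of the receptor family CSF1R was highest in macrophage-like cells (431 ± 235 CPM) and PDGFRB in smooth muscle and pericyte-like cells (55.4 ± 8.31 CPM). PDGFRA and FLT3 were not analysed here, since only 3 of the 5 listed class III receptors were found by symbol. Each measured receptor thus had a different leading class.

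Other cells known for KIT were checked through their markers. The melanocyte enzyme TYR had 0 UMIs, TYRP1 had 3 and DCT had 27, of which 22 were in glia-like cells. MLANA had 1065 UMIs, 911 of them in macrophage-like cells. Of the markers of interstitial cells of Cajal, GJC1 and THBS4 were measured and lay mostly in smooth muscle, pericyte-like and fibroblast-like cells, which had little KIT.

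In the epithelium KIT was nearly confined to the normal libraries. Epithelial-like cells had 1 KIT UMI in each injured library, among 566 cells in Injury_1 and 354 in Injury_2, against 49 in 441 cells of Normal_1 and 32 in 171 cells of Normal_2. The levels were 0.138 and 0.178 CPM after injury and 9.29 and 10.5 CPM in normal mucosa, and the groups do not overlap. The means were 0.158 ± 0.0284 and 9.91 ± 0.868 CPM (SD, n = 2 each). Summed over libraries, 2 UMIs of 12866469 stood against 81 of 8314037, a ratio of 62.7 with a counting interval of 16.8 to 526.

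The share of epithelial-like cells with a KIT UMI was 0.177% and 0.283% in the injured and 9.07% and 11.7% in the normal libraries. The injured shares were below those of the fibroblast-like cells of the same libraries, and the normal shares above theirs, with median depths of 11932, 16316, 12916 and 19902 UMIs in epithelial-like and 7997, 8468, 5150 and 7044 in fibroblast-like cells. Injury_1 was the shallowest and Normal_2 the deepest, while Injury_2 was deeper than Normal_1. Thinned to 1000 UMIs, the shares were 0.0153% and 0.0405% against 0.846% and 1.01%, a difference of 0.897 points (lower after injury, exact permutation p = 0.33, the smallest possible).

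The edgeR quasi-likelihood test on sums per library gave KIT a log2 fold change of -6.04 (SE 0.59, adjusted p = 0.0273) for injured against normal epithelial-like cells. KIT was 1 of 117 genes called among 7046 tested, 1.66% in either direction, and 1 of 73 called lower, 1.04%. The count of called genes was 50 without Injury_1, 53 without Injury_2, 417 without Normal_1, 476 without Normal_2 and 58 with the replicate number as a block, so the background share moved several-fold. Since each injured library had 1 KIT UMI, the fitted fold depends on the small added count of the model and the ratio with its counting interval is given as the size, resting on 2 injured UMIs and falling to 28.0 at or below 10% mitochondrial UMIs. A change in the composition of the epithelium and a change within its cells both enter this sum.

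KIT in the normal epithelium lay mostly in the KRT5 side of the tissue, KRT5 being the keratin of basal cells. Of 10 epithelial sub-clusters 5 were kept, and the others were set aside for few UMIs, markers of other classes or proliferation genes. Sub-cluster 4, which is high in KRT5, had KIT in 29 of 114 cells (25.4%) in Normal_1 and 3 of 9 (33.3%) in Normal_2, at 22.2 and 36.6 CPM. Sub-cluster 0, led by F3, INSL5 and LAMB3, had it in 8 of 72 (11.1%) and 13 of 72 (18.1%), at 10.0 and 12.8 CPM. In the injured libraries these sub-clusters had no KIT UMI in 34 and 21 cells and in 115 and 74 cells. Sub-clusters 1 and 3, of which 3 is high in the uroplakin UPK1B, had 0 KIT UMIs in every library, and sub-cluster 2 had 1 cell in Injury_2 and 1 in Normal_1. Of those set aside for markers of other classes, sub-cluster 8 (VWF, PECAM1) had 2 KIT UMIs in 7 cells of Normal_1 and 3 in 10 of Normal_2. These are 21.2 and 12.8 CPM. Sub-cluster 7 (COL1A1, DCN) had 4 in 18 cells of Normal_2 (12.8 CPM) and 0 in 4 cells of Normal_1. Both had 0 in the injured libraries.

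**Figure D3:**
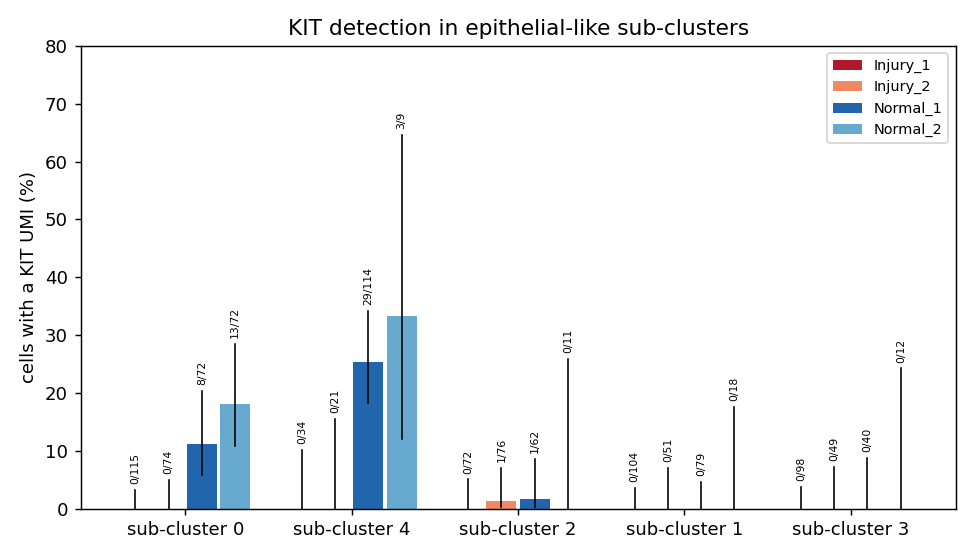
Share of cells with a KIT UMI in the 5 epithelial-like sub-clusters kept, by library, with Wilson 95% intervals as lines and the number of cells with KIT over all cells above each bar. Bars rise above 10% only for sub-clusters 0 and 4 of the normal libraries.

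Within sub-clusters 0 and 4, which were made after integration of the libraries, KIT differed in the same direction. Their injured and normal cells were unlike in other genes too. UPK3B was found in 57.7% and 32.6% of these cells in Injury_1 and Injury_2, against 5.91% and 4.94% in Normal_1 and Normal_2. INSL5 was at 262.4 and 459.4 CPM against 3.365 and 3.629. KRT5 (79.21, 349.4, 336.5 and 165.7 CPM) and TP63 (16.62, 27.87, 19.82 and 18.75 CPM) overlapped between conditions. How far such differences enter the fold of KIT was not tested. Clustered without integration, epithelial-like cells separated by condition, with 522, 321, 1 and 7 cells of Injury_1, Injury_2, Normal_1 and Normal_2 in 1 cluster and 43, 30, 247 and 130 in the cluster led by LAMB3, F3 and KRT5. Sub-clusters 0 and 4 together had 0 of 149 and 0 of 95 cells with KIT after injury, and 37 of 186 (19.9%) and 16 of 81 (19.8%) in normal mucosa. The 0 of 149 and 0 of 95 injured cells allow a share of cells with a KIT UMI of up to 2.01% and 3.16%, and say less of cells that express it, since most cells with KIT had 1 UMI. With 71 UMIs of 4327994 in normal and 0 of 4765466 in injured cells, KIT was at least 26.1-fold lower after injury (floor of 3 counts over the group), and at least 11.2-fold lower at or below 10% mitochondrial UMIs. Taken per library, 3 counts allow 1.06 CPM in Injury_1 and 1.55 CPM in Injury_2, against 17.2 and 15.1 CPM in Normal_1 and Normal_2. At or below 10% mitochondrial UMIs, 13 of 70 cells of Normal_1 had KIT but 0 of 14 of Normal_2, against 0 of 106 and 0 of 56 in the injured libraries, so all 16 cells with KIT of Normal_2 lay above that limit. The sub-clusters were picked after their KIT values were seen, and nothing is read from a test of KIT in them. Of all 5673 genes tested in these sub-clusters edgeR called 464 or 8.18%.

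Cells were also sorted by detected genes. Of cells with a KRT5 UMI, 32 of 159 (20.1%) in Normal_1 and 14 of 64 (21.9%) in Normal_2 had KIT, against 0 of 98 in Injury_1 and 1 of 127 in Injury_2. Of cells without KRT5, 8 of 282 (2.84%) and 6 of 107 (5.61%) had KIT in the normal libraries. Of cells with a UMI of TP63, the other basal marker, 13 of 96 (13.5%) in Normal_1 and 3 of 48 (6.25%) in Normal_2 had KIT, against 9.07% and 11.7% of all epithelial-like cells. Of cells with a uroplakin UMI, which marks differentiated urothelium, 3 of 133 in Normal_1, 0 of 31 in Normal_2, 1 of 444 in Injury_1 and 0 of 205 in Injury_2 had it. KRT5 itself was at 64.8, 175, 183 and 116 CPM in Injury_1, Injury_2, Normal_1 and Normal_2, so the basal keratin overlapped between conditions (log2 fold change -0.52, SE 0.49, adjusted p = 0.593 by edgeR).

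The 62 epithelial-like cells with KIT mostly carried a low count. KIT had 1 UMI in 45 of them, 2 in 14 and 3 or more in 3, and 53 (85.5%) were in sub-clusters 0 and 4. None of the 62 had a UMI of the leukocyte genes PTPRC, LCP1 or CORO1A, found in 55 of the 1470 other epithelial-like cells (3.74%). In the normal libraries alone, which held 60 of the 62, these genes were found in 11 of 552 cells without KIT (1.99%). With so few such cells, 0 of 60 says little. Mast cell markers were counted here over the 9 found in at most 5% of epithelial-like cells, which leaves out HPGDS and ENPP3. In the normal libraries a marker of these 9 was found in 2 of 60 cells with KIT (3.33%) and in 3 of 552 without (0.543%). Over all libraries a marker of the 9 was found in 3 cells with KIT (4.84%) against 31 without (2.11%). HPGDS was found in 6 (9.68%) and ENPP3 in 3 (4.84%) of the 62 cells, against 5.42% and 5.61% of all epithelial-like cells. Of cells with KIT 5 (8.06%), against 92 without (6.26%), were among the 5% highest doublet scores of their library. In the normal libraries alone these were 5 (8.33%) against 31 (5.62%).

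The share of mitochondrial UMIs moved with the condition. Above 10% lay 152 of 566 and 126 of 354 epithelial-like cells after injury and 249 of 441 and 102 of 171 in normal mucosa. At or below 10%, KIT had 1, 1, 16 and 2 UMIs in Injury_1, Injury_2, Normal_1 and Normal_2, or 0.18, 0.268, 7.89 and 2.10 CPM, and a ratio of normal over injured of 28.0 with an interval of 6.71 to 249. Above 10% it had 0, 0, 33 and 30 UMIs. Of the 18 normal UMIs at or below 10%, 16 came from Normal_1. The 2 of Normal_2 lay in 1 cell and under its floor of 3 counts (3.15 CPM, with 14.4 CPM above 10%), so below the limit Normal_2 could not be told from the injured libraries. KIT fell under the low-count filter of the fit at 10%, so no p-value is given there.

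In mast cell-like cells the direction was the opposite, without passing the test. KIT had a log2 fold change of 1.37 (SE 0.60) for injury against normal, with adjusted p = 0.982 by edgeR and an unadjusted p of 0.0518. It was 2.28 without Normal_1 and 0.78 without Normal_2. Of 767 genes that could be tested there 0 were called (0%), 33 had an unadjusted p under 0.05, and DESeq2 called 2. The fit used 7 cells of Normal_1, fewer than the 10 set as the minimum.

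The injury effects on KIT in epithelial-like cells and in the rest are set side by side as a description, since the same UMIs chose the gene. Against the sum of all other cells of the same library the epithelial effect differed by -6.96 on the log2 scale (SE 0.57), where edgeR called 139 of 9504 genes or 1.46%. Against mast cell-like cells it differed by -7.68 (SE 0.84), where 93 of 6109 or 1.52% were called. KIT fell in epithelial-like cells of both injured libraries and was higher in mast cell-like cells of both.

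Over all kept cells KIT did not pass the test, at 7.03, 8.95, 5.81 and 6.29 CPM in Injury_1, Injury_2, Normal_1 and Normal_2 (log2 fold change 0.38, SE 0.29, adjusted p = 0.668 by edgeR, where 1 of 10475 genes or 0.00955% was called, against 276 with the replicate number as a block and 419 by DESeq2). Both injured libraries lay above both normal ones. T cell-like cells, at 24.0 and 16.0 CPM after injury and 45.2 and 72.8 in normal mucosa, had the largest difference of KIT outside the epithelium, -1.75 (SE 0.38, adjusted p = 0.152, 4 of 4538 or 0.0881% called). With the replicate number as a block the adjusted p was 0.0398, and without the cell of 36 KIT UMIs Injury_1 had 11.9 CPM. KIT in fibroblast-like (-1.23, adjusted p = 0.483), macrophage-like (-0.58, adjusted p = 0.527) and endothelial-like cells (0.39, adjusted p = 0.94) did not pass the test. In these classes 0 of 8869, 0 of 5662 and 0 of 7506 genes were called (0%) by edgeR, with 891, 718 and 538 at an unadjusted p under 0.05 and 240, 54 and 53 called by DESeq2. With the replicate number as a block 127 genes were called in fibroblast-like cells.

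**Figure D4:**
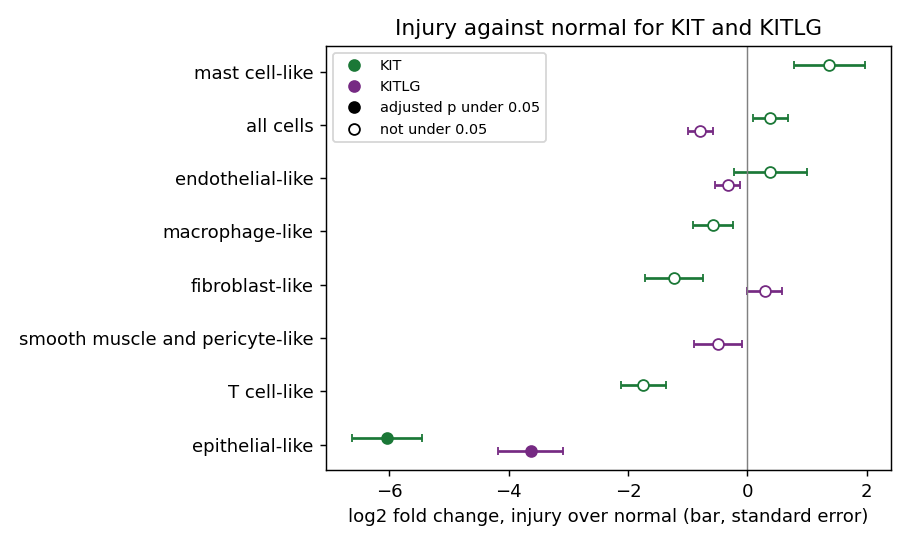
Log2 fold change of KIT and KITLG for injury over normal in each class, with the standard error as a line, filled points for an adjusted p under 0.05 and open points otherwise. Only the epithelial-like points, KIT at -6.04 and KITLG at -3.63, are filled.

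The ligand KITLG and KIT were highest in different classes, although endothelial-like cells held much of both. In mast cell-like cells KITLG had 0 UMIs in every library, which allows up to 12.8 CPM over all of them. Endothelial-like cells had 85.3, 77.1, 96.8 and 94.5 CPM and glia-like cells 88.5, 92.0, 172 and 114 CPM in Injury_1, Injury_2, Normal_1 and Normal_2. Smooth muscle and pericyte-like cells had 37.8, 30.5, 70.4 and 29.3 CPM and fibroblast-like cells 16.5, 19.4, 20.6 and 12.4 CPM. Stem cell factor transcripts were thus highest in vessels and glia, and endothelial-like cells held 44.5% to 74.9% of all KITLG UMIs.

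**Figure D5:**
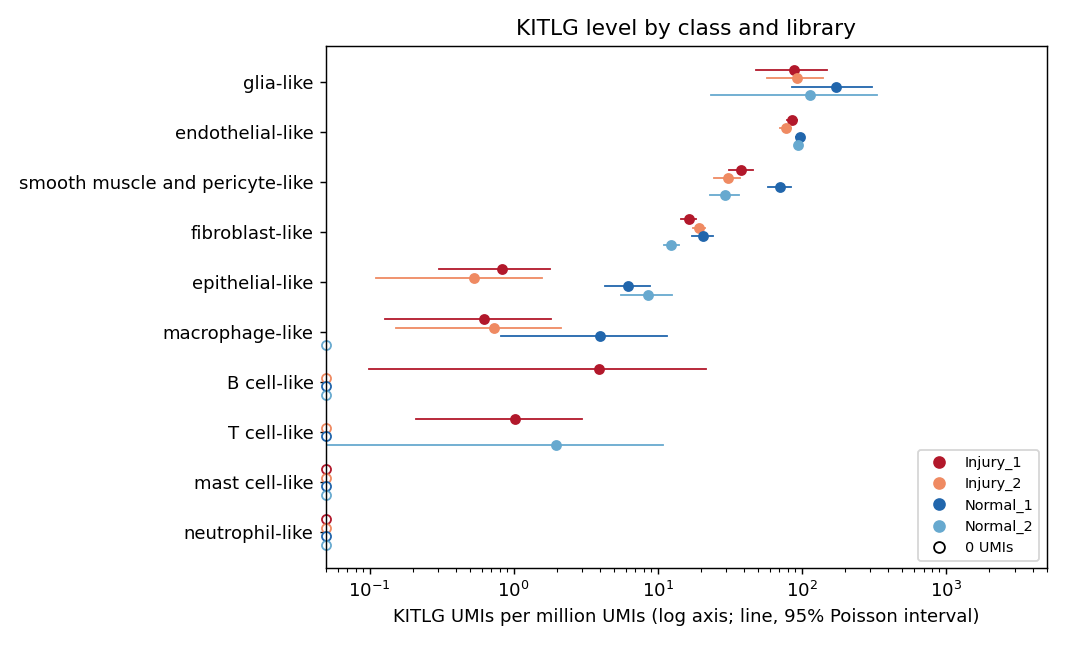
KITLG level per cell class and library, in CPM on a log axis, with exact Poisson 95% intervals as lines and open points for 0 UMIs. Endothelial-like and glia-like cells sit highest, mast cell-like cells are at 0 UMIs in all 4 libraries, and epithelial-like cells split by condition.

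KITLG in the epithelium was low and followed the direction of KIT. It had 6 and 3 UMIs in the injured and 33 and 26 in the normal libraries, or 0.828 and 0.534 against 6.26 and 8.55 CPM, and the groups do not overlap. The ratio of normal over injured was 10.1 with a counting interval of 5.00 to 23.3, and the log2 fold change was -3.63 (SE 0.54, adjusted p = 0.0425 by edgeR). Unlike KIT, KITLG was spread over the sub-clusters, with 36 against 5 UMIs in sub-clusters 0 and 4 and 11 against 1 in sub-clusters 1, 2 and 3. Sub-cluster 8, set aside for markers of other classes (VWF and PECAM1), had 1, 0, 1 and 8 KITLG UMIs in Injury_1, Injury_2, Normal_1 and Normal_2. The 8 of Normal_2, of its 26, lay in 7 of 10 cells (34.2 CPM). The part of endothelial RNA in the epithelial values of KITLG was not tested. A KITLG UMI was found in 8 of the 60 normal epithelial-like cells with KIT and in 47 of the 552 without.

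The call for KITLG was lost when either injured library was left out, with adjusted p = 0.143 without Injury_1 and 0.138 without Injury_2, at the mitochondrial limit of 10% (adjusted p = 0.146) and with the replicate number as a block (adjusted p = 0.0742). Over all kept cells KITLG had -0.79 (SE 0.21, adjusted p = 0.285). Its epithelial injury effect against all other cells was -2.89 (SE 0.59, adjusted p = 0.0730). In endothelial-like (-0.33, SE 0.21, adjusted p = 0.825), fibroblast-like (0.29, SE 0.30, adjusted p = 0.804) and smooth muscle and pericyte-like cells (-0.49, SE 0.41, adjusted p = 0.768) KITLG did not pass the test. In the last class 0 of 6497 genes were called (0%) by edgeR, 619 at an unadjusted p under 0.05 and 63 by DESeq2, and KITLG turned to 0.19 without Normal_1 and to -0.96 (adjusted p = 0.0190) without Normal_2.

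Genes listed as acting downstream of the receptor were then read from the same comparison. Of 23 listed KIT signalling genes 20 were measured and 14 tested, and 0 were called between injured and normal epithelial-like cells, with a median log2 fold change of 0.15 against -0.00 over all genes, of which 1.66% were called. None of the 3 tested genes that restrain the receptor and none of the 5 early response genes was called. Of the early response genes ETV5, a transcription factor induced by receptor kinases, had 47.2, 41.3, 7.59 and 10.5 CPM in Injury_1, Injury_2, Normal_1 and Normal_2 (log2 fold change 2.04, adjusted p = 0.0521), and MYC had -1.11 (adjusted p = 0.127). Of the transcription factors known to act on KIT only MITF could be tested, at -0.82 (adjusted p = 0.374).

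Basal and urothelial genes were set beside KIT. Of 5 tested basal genes LAMB3, a laminin chain of the basement membrane, was called lower, with 24.3, 16.4, 195 and 346 CPM in Injury_1, Injury_2, Normal_1 and Normal_2 (log2 fold change -4.03, adjusted p = 0.0273), and 4 were not called. Of the uroplakins UPK3B had 2.52 (adjusted p = 0.101), and 0 of 5 urothelial factors were called. Among the genes named for a large fall were AQP8 (-5.05), the laminin chain LAMA3 (-4.74), CRTAC1 (-4.38) and tissue factor, F3 (-4.16). The largest increases were S100A12, with 81.5 and 648 against 0.19 and 0 CPM and no size given for the fold since the normal libraries were near 0, PIGR (5.28), SLC44A4 (4.46), INSL5 (4.40) and DDX60 (3.61). S100A12 and PIGR also led a sub-cluster set aside for markers of other classes (IL1B, HLA-DRA, S100A9, C1QA), of which 66 and 35 cells came from the injured and 2 and 2 from the normal libraries. The part of these cells in the increases was not tested. All these had adjusted p values of 0.0273 to 0.0436.

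In mast cell-like cells 3 KIT signalling genes could be tested and 0 were called, as were 0 of all 767 genes tested there (0%). LAT had 679, 751, 790 and 929 CPM in Injury_1, Injury_2, Normal_1 and Normal_2, JAK2 had 293, 269, 395 and 160.2, and STAT3 had 386, 432, 65.8 and 224. LAT is a scaffold of IgE receptor signalling, and JAK2 and STAT3 act after cytokine receptors and KIT. STAT3 was higher in both injured libraries (log2 fold change 1.28, adjusted p = 0.982).

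Epithelial-like cells with KIT were then compared with those without it inside the same normal library. The comparison used 38 against 329 cells in Normal_1 and 16 against 106 in Normal_2, since the injured libraries had too few. Median depths were 13436 against 13655 UMIs and 21177 against 20247. With the library as a block, 516 of 4721 genes were called (10.9%), 271 higher (5.74%) and 245 lower (5.19%) in cells with KIT. DESeq2 called 88, and without the block for the library edgeR called 0, with 279 at an unadjusted p under 0.05, so the calls named next rest on that block.

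Of 5 basal genes KRT5 (1.47, adjusted p = 3.06e-10) and LAMB3 (1.40, adjusted p = 2.78e-11) were higher in cells with KIT, while TP63 had -0.15 (adjusted p = 0.886). KRT5 stood at 436 against 156 CPM in Normal_1 and 233 against 110.1 in Normal_2. UPK3B was lower (-2.91, adjusted p = 0.00140). All 5 urothelial factors were called, with PPARG (0.62) and ELF3 (0.78) higher and GRHL3 (-3.64), GATA3 (-1.03) and KLF5 (-0.50) lower. Of 10 tested KIT signalling genes JAK2 was higher (0.85, adjusted p = 0.0485) and PIK3R1 (-1.47, adjusted p = 0.00798) and PLCG2 (-2.82, adjusted p = 0.0124) were lower, and KITLG was not called (0.25, adjusted p = 0.905).

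The decreases named in cells with KIT were those of KRT12, B4GALT3, KRT23, RNF39 and SCIN. Each had 1.91 to 3.83 CPM in cells with KIT of Normal_1, and in Normal_2 all but RNF39 (3.03) were at 0. Cells without KIT had 20.7 to 131 CPM, and no size is given for the folds since the cells with KIT were near 0. The largest increases in cells with KIT were those of DCN (2.63), LUM (2.47), HTRA1 (2.09), DLK2 (1.69) and CRYAB (1.66). CRYAB was nearly equal in Normal_1 (24.88 against 23.45 CPM) and apart in Normal_2 (291 against 61.7). DCN and LUM are matrix proteoglycans of fibroblasts. DCN had 23.0 against 9.16 CPM in Normal_1 and 288 against 35.5 in Normal_2, and it was detected in 9 of 38 cells with KIT against 39 of 329 without in Normal_1, and in 9 of 16 against 43 of 106 in Normal_2. All 6 measured fibroblast markers had a higher level in the cells with KIT in Normal_2, among them COL1A1 (60.6 against 44.4 CPM), COL1A2 (176 against 109) and COL3A1 (236 against 139.7). The share of cells with a UMI went the other way there for COL1A1 (37.5% against 47.2%), LUM (31.2% against 42.5%) and COL3A1 (81.2% against 84.0%). In Normal_1 DCN, LUM and COL1A2 (17.2 against 14.5) were higher and COL1A1 (0 against 5.58), COL3A1 (7.66 against 19.9) and FBN1 (0 against 0.223) lower. Of epithelial-like cells without a UMI of a fibroblast marker, the 243 of Normal_1 had 25 KIT UMIs or 9.09 CPM and the 8 of Normal_2 had none. All 32 KIT UMIs of Normal_2 lay in cells with a fibroblast marker UMI, as did 163 of its 171 epithelial-like cells, and the injured libraries had 12 and 7 cells without one. The part of fibroblast RNA in the comparison by KIT was not tested.

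Within sub-clusters 0 and 4 alone, 37 cells with KIT stood against 149 without in Normal_1, and 16 against 65 in Normal_2. Nearly all compared cells with KIT thus lay in these sub-clusters, and mainly cells without KIT were left out. There 4 of 4082 genes were called, F3 (0.62), LUM (2.56), DCN (2.80) and the unnamed ENSOCUG00000021126 (0.52). The wider comparison by KIT therefore also sets these sub-clusters against the others, and the part of this in its 516 calls was not tested.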

How the data were processed

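Raw UMI counts per gene and barcode from 4 rabbit libraries were used as deposited by the authors, who made them with Cell Ranger (6.0.1 in the file headers). The genome build is not given in the sources used here, so no coordinates are printed, and RefSeq served for gene names and neighbours only. There were 0 unused sample columns. Cells with at least 500 UMIs, 200 genes and at most 15% mitochondrial UMIs (13 genes) were kept, the limits that the study's methods state.

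Cells were clustered with Seurat 5.3.0 after integration of the 4 libraries (2000 variable genes, KIT removed, 30 components, resolution 0.8, 28 clusters). Doublets were scored with the Scrublet of scanpy 1.11.5 and kept, with an alternative leaving out the highest 5%. Classes were named from marker lists without KIT. The gene, the lists and the tests were chosen with earlier results of these data known.

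UMIs were summed per library and class and tested with edgeR 4.0.16 (filterByExpr, TMM, quasi-likelihood test, Benjamini-Hochberg adjustment over all genes tested, threshold 0.05), and with DESeq2 1.42.0 as an alternative. SE is the log2 fold change over the square root of F. A class needed 10 cells per library. Normal_1 had 7 mast cell-like cells, so the minimum there was lowered to 5 after the numbers of cells were seen. KIT-detected and KIT-undetected epithelial-like cells were compared with the library as a block and KIT left out. Intervals are Wilson or exact Poisson at 95%, and a count of 0 is given a floor of 3 counts. Both cover counting error only.

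Named genes were KIT, KITLG, the called or needed members of the lists, the 10 genes most like KIT with at least 20 CPM in their highest class, and in each comparison the 5 largest called changes each way with a symbol, at least 20 CPM and no overlap between groups. A gene that this rule names is not reported here. The libraries are given as biological replicates, no litter or day is named, and p-values between conditions measure the spread between these libraries. The comparison by KIT takes out the level of each library. Its p-values rest on how the difference between 2 sums of cells varied over 2 normal libraries, and not on the spread between animals. The scripts were checked on simulated counts.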

Additional observations from a re-analysis of the deposited data

Results flagged for a closer look

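The injury effect on KIT lay apart between cell classes, a description because the same UMIs chose the gene. Epithelial-like cells differed from all other cells of the same libraries by -6.96 and from mast cell-like cells by -7.68 on the log2 scale.

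KIT was also present in barcodes that the filter left out. In these it stood at 26.3 CPM in Injury_1 (730 barcodes) and 16.2 CPM in Injury_2 (612 barcodes). The barcodes left out of Normal_1 and Normal_2 were lower, at 3.29 and 8.53 CPM. In kept cells the levels were 7.03 and 8.95 CPM in the injured libraries. Which cells these barcodes held was not tested.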

How the results depend on the processing

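KIT in epithelial-like cells kept its direction and its call in the 13 alternatives that gave a value, leaving aside the sub-clusters picked for their KIT, though all re-use the UMIs that chose the gene, with adjusted p from 5.06e-13 to 0.0413 and -6.25 to -5.77 when 1 library was left out. At the mitochondrial limit of 10% it gave no value. Samples of the injured and normal groups share numbers that the labels tie to no animal or day, and deviations of same-numbered libraries correlated by 0.103 in epithelial-like, -0.332 in mast cell-like, 0.329 in all, 0.148 in endothelial-like and 0.244 in fibroblast-like cells, and by -0.105 to 0.0742 in the other classes. The block moved the count of called genes from 1 to 276 over all cells, from 0 to 127 in fibroblast-like and from 117 to 58 in epithelial-like cells. DESeq2 called 419, 240 and 487 there, and leaving out 1 library gave 50 to 476 in epithelial-like cells (50 without Injury_1, 53 without Injury_2, 417 without Normal_1, 476 without Normal_2). With the number as a replicate block KIT had -6.02 (adjusted p = 0.0401). KITLG in epithelial-like cells lost its call with the replicate block (-3.59, adjusted p = 0.0742) and at 10% mitochondrial UMIs (-3.37), and ranged from -3.96 to -3.26 over libraries left out. KITLG in smooth muscle and pericyte-like cells ranged from -0.96 to 0.19 and KIT in endothelial-like cells from -0.20 to 1.44, turning to -0.14 without Injury_2 and -0.20 without Normal_1. KIT in T cell-like cells was called with no filter on low genes (-1.61, adjusted p = 0.00271), with the replicate block (-1.73, adjusted p = 0.0398) and without Normal_1 (-2.03, adjusted p = 0.0420). KIT in mast cell-like cells stayed positive and uncalled in 14 alternatives, from 0.78 to 2.28 over libraries left out and with adjusted p from 0.119 to 0.9995. Genes called by KIT detection fell from 516 to 88 with DESeq2, to 4 in sub-clusters 0 and 4 alone (added after seeing the data) and to 0 with no replicate block for the library, where 279 had an unadjusted p under 0.05. The causes were not tested. The difference in the thinned share of mast cell-like cells turned to -1.46 points without thinning and ranged from -4.25 (without Injury_2) to 24.2 (without Injury_1) over libraries left out, being -0.54 without Normal_2. The mean share of KIT UMIs in mast cell-like cells ranged from 10.2% to 22.3% and that in epithelial-like cells from 4.02% to 15.3% over libraries left out. The comparison by KIT could not be run without either normal library or for cells with 2 KIT UMIs. Depth limits mast cell-like cells, with 11 KIT UMIs in Normal_1 and 7 in Normal_2.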
